A study of Homo sapiens with 6 samples.

Results

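The 10 genes described here encode secreted inflammatory cytokines and colony-stimulating factors. They are IL6, IL11 and LIF, which signal through the shared receptor chain gp130, the interleukin-1 genes IL1A and IL1B, the colony-stimulating factors CSF1, CSF2 and CSF3, and the CC chemokines CCL2 and CCL20. They were taken from a fixed list of symbols, matched to the gene identifiers of the count files, and make up 10 of 58381 counted genes. All 10 were among the 23160 genes tested. RNA was measured by sequencing of polyadenylated transcripts in 786-0, a human cell line long in use as a model of clear cell renal carcinoma. Every library, controls included, is labelled SETD2 KO, a knockout of the methyltransferase that trimethylates lysine 36 of histone H3. The 3 groups of 2 libraries were given DMSO (the vehicle), 100 nM decitabine or 300 nM decitabine daily for 3 days, with fresh medium on day 4 and harvest on day 5. Decitabine, an analogue of deoxycytidine, enters DNA, traps DNA methyltransferases there and lowers DNA methylation. The labels name 1 knockout background and do not say how many clones it holds, and cells with intact SETD2 and other kidney cells are not analysed here. No label ties replicate libraries to cultures of their own, so the p-values measure no more than library-to-library spread and may be technical.

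Cytokines of these families are usually made at low levels by unstimulated epithelial cells, and their genes are switched on by transcription factors of the NF-kB, AP-1 and C/EBP families after infection, injury or interleukin-1 signalling. Interleukin-6, interleukin-11 and LIF each bind a receptor chain that pairs with gp130 (gene IL6ST) and activates JAK kinases and STAT3, whereas interleukin-1α and interleukin-1β act through IL1R1, IL1RAP and the adaptor MYD88. The colony-stimulating factors drive the growth and survival of myeloid cells, and CCL2 and CCL20 attract monocytes and CCR6-bearing lymphocytes and dendritic cells. Kidney cancer cells are a known source of interleukin-6.

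Between 89159112 and 96646427 reads per library were assigned to genes. Were reads independent, a count of 0 would allow 3 reads, which correspond to 0.0306 to 0.0362 CPM (counts scaled to library size by the TMM method). Both mates of a fragment were counted, so the level that a count of 0 allows is higher than this. SETD2 itself averaged 79.6, 44.4 and 19.1 CPM with DMSO, 100 nM and 300 nM, and these levels do not check the genotype, since an edited gene can still be transcribed. Renal carcinoma markers (11 genes) summed to 4247 to 6660 CPM over the 6 libraries, although CA9, a defining marker of this cancer type, had 0 reads with DMSO. Leukocyte markers (12 genes) summed to 0.936 to 1.11 CPM with DMSO, 3.41 to 3.69 at 100 nM and 4.83 to 6.0 at 300 nM, and 5, 2 and 1 of them were at 0 reads in the respective groups. The 7 markers of stroma and endothelium summed to 1.69 to 2.27, 5.17 to 5.48 and 5.95 to 6.09 CPM. Both marker sums thus moved in the same direction as most of the cytokine genes below, and their part in the results was not tested. Mitochondrial transcripts took 4.23% and 4.28% of assigned reads with DMSO, then 3.42% and 3.56% at 100 nM and 2.55% and 3.08% at 300 nM, and their part was not tested either. Longer transcripts and those of lower GC content had lower fold changes: at 300 nM against DMSO, expressed coding genes had a median log2 fold change of 0.43 among the 4145 with the shortest exons and -0.55 among the 4142 with the longest. It was -1.06 among the 4144 of lowest GC content and 0.56 among as many of highest GC content. A fit with offsets that remove these trends is therefore given beside the results that it moves most, and is called the length and GC fit.

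With decitabine, 9 of the 10 genes were higher at each dose. At 100 nM, 9 were higher than with DMSO and CSF1 did not pass the test, where 24.0% of all genes tested were higher and 18.7% lower (edgeR's quasi-likelihood test, Benjamini-Hochberg adjusted p under 0.05). At 300 nM, 9 were higher and CSF1 was lower, where 34.8% of all genes were higher and 31.1% lower. The rises were of at least 8-fold for 7 genes at either dose, where 7.95% and 11.1% of all genes tested rose that far. The median log2 fold change of the 10 genes was 4.70 at 100 nM and 4.96 at 300 nM, against 0.03 and 0.05 over all genes tested. These 2 comparisons share the DMSO libraries and are not independent of each other. IL1A, IL1B and CSF3 reached the read minimum for testing in 0 DMSO libraries and CCL20 in 1. These 4 genes therefore entered the test through their decitabine libraries, and IL1A, IL1B and CSF3 had to differ, so the counts are a description. CCL20, with 10 and 22 DMSO reads, missed the minimum narrowly in the other DMSO library and did not have to differ. Of the other 6 genes, which passed the minimum in both DMSO libraries, 5 rose at 100 nM. In bulk RNA a change in the share of cells that express a gene and a change in transcript per cell cannot be told apart.

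**Figure D1:**
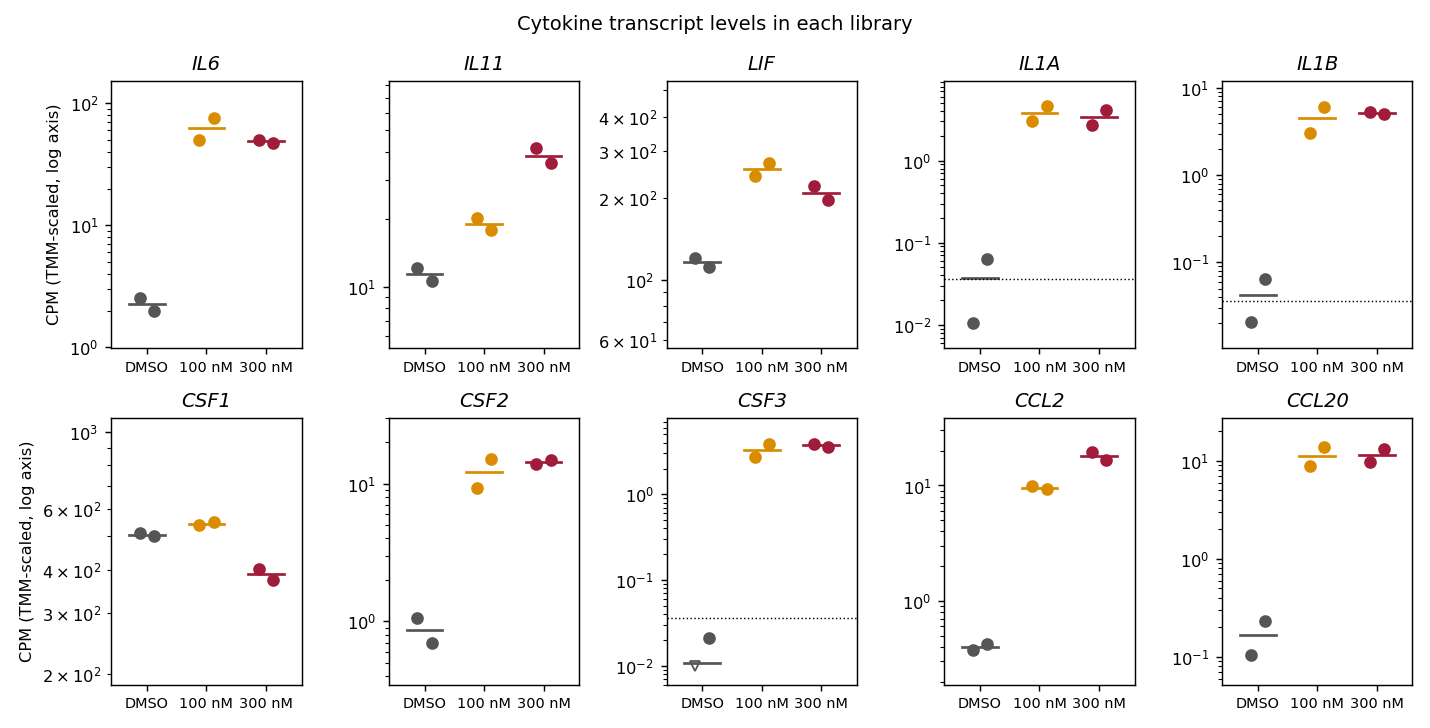
Transcript level of each of the 10 genes in each library, as TMM-scaled CPM on a log axis whose range differs between panels. Points are libraries (2 per group), bars are group means, the dotted line marks the highest level that 3 reads correspond to (0.0362 CPM), and the open triangle stands for a library with 0 reads. All genes except CSF1 have both libraries of each dose above both DMSO libraries. CSF1 stays between 372.7 and 549.3 CPM, above both DMSO libraries at 100 nM and below them at 300 nM. How many of all genes separate in this way was not counted, so this is a description.

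Between 100 nM and 300 nM the genes moved in both directions. IL11 and CCL2 were higher at 300 nM than at 100 nM, LIF and CSF1 were lower, and 6 genes did not pass the test. Of all genes tested, 20.0% were higher and 23.4% lower. The counts of 2 higher and 2 lower among the 10 genes are thus near the background in both directions. The median log2 fold change of the 10 genes between the doses was 0.10, against -0.04 over all genes.

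Stretches upstream of 4 of the genes are shown because they carry, or lack, the sites of the transcription factors named above. RefSeq windows (GRCh38.p14) running from 250 bases before a gene's start to 50 after it were matched for IL6, IL11, IL1A, IL1B, CSF2 and CCL20, with 7 windows in all. Each window was searched on both strands for a strict NF-kB motif (GGGA and TTCC with any 2 bases between them) and the wider NF-kB consensus, of which the former is a special case, for the AP-1 site TGANTCA and for the C/EBP site TTNNGNAA. Among 35116 windows of the same length, 1.61% held the strict NF-kB motif, 11.3% the wider NF-kB consensus, 7.71% TGANTCA and 36.8% TTNNGNAA. Bases inside annotated exons of any transcript are left out of the stretches, and capitals mark the matches.
IL6 (chr7:22726950-22727146, plus strand, ending 54 bases before the start): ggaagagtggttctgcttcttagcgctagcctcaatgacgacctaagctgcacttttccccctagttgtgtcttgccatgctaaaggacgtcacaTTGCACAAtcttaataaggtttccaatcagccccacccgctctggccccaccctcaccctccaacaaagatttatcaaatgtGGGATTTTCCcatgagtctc
CCL20 (chr2:227813592-227813821, plus strand): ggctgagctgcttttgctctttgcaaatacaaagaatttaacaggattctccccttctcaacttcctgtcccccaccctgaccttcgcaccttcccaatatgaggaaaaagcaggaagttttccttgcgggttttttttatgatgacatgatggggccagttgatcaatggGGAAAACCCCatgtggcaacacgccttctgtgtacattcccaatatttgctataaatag
IL11 (chr19:55370464-55370713, minus strand): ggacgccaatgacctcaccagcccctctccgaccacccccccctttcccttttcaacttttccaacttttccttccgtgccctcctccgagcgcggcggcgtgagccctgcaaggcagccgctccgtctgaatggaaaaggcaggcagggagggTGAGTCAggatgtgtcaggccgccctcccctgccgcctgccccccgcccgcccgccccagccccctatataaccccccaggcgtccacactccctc
CSF2 (chr5:132073539-132073788, plus strand): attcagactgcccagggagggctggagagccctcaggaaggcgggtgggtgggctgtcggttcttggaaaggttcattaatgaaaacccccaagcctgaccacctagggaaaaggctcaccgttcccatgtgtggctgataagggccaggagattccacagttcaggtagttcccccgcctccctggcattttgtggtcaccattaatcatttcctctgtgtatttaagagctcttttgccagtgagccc

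The IL6 stretch holds the NF-kB match GGGATTTTCC at -73 to -64 from the start and the C/EBP match TTGCACAA at -155 to -148. The CCL20 stretch holds an NF-kB consensus match on the minus strand at -79 to -70, and the IL11 stretch an AP-1 match, TGAGTCA, at -96 to -90. In the IL1A window, AP-1 matches lay at -12 to -6 and at 39 to 45 from the first of its annotated starts. C/EBP matches lay at -199 to -192 and at -32 to -25 from the same start, and the IL1B window held 3 C/EBP matches. None of the searched motifs was found in the CSF2 window, which says only that these letters are absent there. Windows also differed in the CG dinucleotides that DNA methyltransferases act on. IL1B had 2 in 300 bases, CCL20 3, CSF2 4, IL6 7 and IL1A 8, each below the median of 14 over all windows, and IL11 had 19. IL11 was the gene of these 6 with the smallest rise at both doses, and also the one with the highest level per kilobase with DMSO. Whether CG content bears on the rise was not tested, and LIF, CSF1, CSF3 and CCL2 had no window. DNA methylation is not analysed here, and a match is a description of the sequence, not a site of binding.

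Among the gp130 cytokines, IL6 rose from a low level to a moderate one, while IL11 and LIF, which were well expressed with DMSO, rose by smaller factors. IL6 (ENSG00000136244.11, chr7:22725884-22732002, plus strand), the main inducer of the acute-phase response, measured 2.54 and 1.97 CPM with DMSO, 50.4 and 76.3 at 100 nM, then 50.1 and 47.6 at 300 nM. Every decitabine library lay above both DMSO libraries. The higher 300 nM library nearly met the lower 100 nM library, without overlap. The log2 fold change against DMSO was 4.81 (SE 0.20, edgeR adjusted p = 3.5e-12) at 100 nM, a 28.1-fold rise, and, at 300 nM, 4.44 (SE 0.19, adjusted p = 4.3e-12). Between the doses IL6 differed by -0.37 (SE 0.16, adjusted p = 0.07), which did not pass the test. It did pass as lower at 300 nM in the fit without the 100 nM library of replicate 1 (-0.67, edgeR adjusted p = 0.0012), with the replicate number as a block (-0.36, adjusted p = 0.0031), without a filter, with only the groups compared, and without either DMSO library. Without the 100 nM library of replicate 2 the difference was -0.051 (adjusted p = 0.86). Counting ignored strand, and 428 of the 2069 exonic bases of IL6 are shared with AC073072.1 on the opposite strand, a gene with 10 to 67 reads per library. A further overlap, of 46 bases, is with STEAP1B, also on the opposite strand. Reads in shared bases could have been left out or credited to either gene, which was not traced. The level of IL6 per kilobase below is divided by all 2069 bases.

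IL11 (ENSG00000095752.6, chr19:55364389-55370463, minus strand), a gp130 cytokine linked to fibrosis and platelet formation, measured 12.1 and 10.6 CPM with DMSO, 20.2 and 18.0 at 100 nM, then 41.6 and 35.6 at 300 nM. The groups were ordered by dose without overlap. Its log2 fold change was 0.75 (SE 0.14, edgeR adjusted p = 2.5e-04) at 100 nM, 1.77 (SE 0.14, adjusted p = 5.6e-09) at 300 nM, and 1.02 (SE 0.13, adjusted p = 1.4e-05) between the doses, a 2.02-fold step. In the length and GC fit these values fell to 0.49, 1.14 and 0.65, each still past the threshold.

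LIF (ENSG00000128342.4, chr22:30240447-30246851, minus strand), which maintains stem cells and induces acute-phase proteins, measured 120.6 and 112.0 CPM with DMSO, 242.3 and 270.8 at 100 nM, then 222.8 and 196.8 at 300 nM. Levels were highest at 100 nM, with no overlap between any of the groups. The log2 fold change against DMSO was 1.14 (SE 0.11, edgeR adjusted p = 1.4e-07) at 100 nM and, at 300 nM, 0.85 (SE 0.11, adjusted p = 1.9e-06). At 300 nM the length and GC fit gave 0.36 (adjusted p = 7.2e-04). The lower level at 300 nM than at 100 nM was -0.29 (SE 0.10, adjusted p = 0.033), and this call was lost in 8 of 13 alternatives, among them DESeq2's test (adjusted p = 0.12) and the fit without the 100 nM library of replicate 2 (adjusted p = 0.29).

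The interleukin-1 genes went from a handful of reads with DMSO to between 227 and 554 reads with decitabine. IL1A (ENSG00000115008.5, chr2:112773915-112784590, minus strand) encodes an alarmin that is active as a precursor and had 1 and 6 reads with DMSO, 296 and 431 at 100 nM, then 227 and 387 at 300 nM. IL1B (ENSG00000125538.11, chr2:112829751-112836903, minus strand) encodes the form that needs cleavage by caspase-1 and had 2 and 6 reads, 296 and 554 reads, and 444 and 480 reads in the same order. For both genes all decitabine libraries lay far above the DMSO libraries, and the libraries of the doses overlapped.

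Levels of IL1A averaged 0.0371 ± 0.0378 CPM with DMSO (SD over 2 libraries, as for all such values), then 3.84 ± 1.16 and 3.42 ± 0.951 at the 2 doses. Against the 7 DMSO reads of the group, the ratio of scaled reads was 103.6 at 100 nM (95% exact binomial interval 50.04 to 258.7) and 94.0 at 300 nM (45.3 to 234.8). These intervals allow for counting error only. They are too narrow even for that, since both mates of a fragment were counted and reads are not independent molecules. The fitted log2 fold changes were 6.65 (SE 0.45, edgeR adjusted p = 2.7e-09) and 6.49 (SE 0.46, adjusted p = 1.5e-09). They were 8.35 and 8.18 without the DMSO library of replicate 2, and 5.88 and 5.71 without that of replicate 1. IL1B averaged 0.0423 ± 0.0304, 4.51 ± 2.11 and 5.22 ± 0.208 CPM. Its ratio to the 8 DMSO reads was 106.0 (53.6 to 246.4) at 100 nM and 123.8 (62.5 to 287.5) at 300 nM, with fitted log2 fold changes of 6.70 (SE 0.44, edgeR adjusted p = 1.8e-09) and 6.91 (SE 0.44, adjusted p = 4.3e-10). Leaving out the same DMSO libraries gave 7.67 and 7.87, and 6.11 and 6.32. Between the doses, IL1A differed by -0.17 (SE 0.27) and IL1B by 0.21 (SE 0.26), with edgeR adjusted p = 0.65 and 0.54. Without the 100 nM library of replicate 2, IL1B passed as higher at 300 nM (0.78, adjusted p = 0.023). That library held 554 of its 850 reads at this dose.

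The 3 colony-stimulating factors parted. CSF1 (ENSG00000184371.13, chr1:109910242-109930992, plus strand), the macrophage growth factor, was already abundant with DMSO, at 510.1 and 499.3 CPM, and measured 538.8 and 549.3 at 100 nM, then 402.9 and 372.7 at 300 nM. The 300 nM libraries lay below all others. The difference at 100 nM was 0.11 (SE 0.09, edgeR adjusted p = 0.38), and in the length and GC fit it was -0.043 (adjusted p = 0.56). At 300 nM CSF1 fell, with log2 fold changes of -0.38 (SE 0.09, edgeR adjusted p = 0.0018) against DMSO and -0.49 (SE 0.09, adjusted p = 4.6e-04) against 100 nM. The length and GC fit gave -0.85 and -0.80.

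CSF2 (ENSG00000164400.5, chr5:132073790-132076170, plus strand), which encodes GM-CSF, the growth factor of granulocytes and macrophages, measured 1.05 and 0.691 CPM with DMSO, 9.35 and 15.02 at 100 nM, then 13.9 and 14.8 at 300 nM. Both 300 nM libraries lay between those at 100 nM, and every decitabine library lay above DMSO. The log2 fold change was 3.80 (SE 0.24, edgeR adjusted p = 1.0e-09) at 100 nM and, at 300 nM, 4.04 (SE 0.24, adjusted p = 1.9e-10), and 3.14 and 2.90 in the length and GC fit. CSF2 has the shortest exons of the 10 genes, 787 bases. Between the doses it differed by 0.24 (SE 0.20, edgeR adjusted p = 0.36), and without the 100 nM library of replicate 2 it passed as higher at 300 nM (0.61, adjusted p = 0.024).

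CSF3 (ENSG00000108342.12, chr17:40015361-40017813, plus strand), which encodes G-CSF, the driver of neutrophil production, had 0 and 2 reads with DMSO, 268 and 360 at 100 nM, then 324 and 340 at 300 nM. Its level with DMSO was below that of 3 reads in both libraries and averaged 3.31 ± 0.823 CPM at 100 nM and 3.75 ± 0.229 CPM at 300 nM (SD, n = 2). The libraries of the doses overlapped. The ratio to the 2 DMSO reads was 313.3 at 100 nM (86.4 to 2593) and 355.7 at 300 nM (98.1 to 2944). These intervals are too narrow for the same reason as those of IL1A, and the 2 reads may be mates of 1 fragment. The fitted log2 fold changes of 8.13 and 8.31 (SE 0.48 each, edgeR adjusted p = 4.5e-10 and 1.2e-10) depend on the prior count at so few reads. They were 7.19 and 7.37 without the DMSO library of replicate 1. Without that of replicate 2, which held both reads, they became 11.27 and 11.44, values set by the prior count since 0 DMSO reads remained. On the deposited variance-stabilised log2 scale, which compresses low levels, the differences were 4.70 and 4.96. On that scale IL1A differed by 4.43 and 4.35 and IL1B by 4.52 and 4.86. In the length and GC fit, the log2 fold change at 300 nM was 7.49 for CSF3 and 7.47 for IL1A.

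Both chemokines rose at each dose, and CCL2 rose further at 300 nM. CCL2 (ENSG00000108691.9, chr17:34255218-34257203, plus strand), the monocyte attractant, measured 0.374 and 0.426 CPM with DMSO, 9.82 and 9.35 at 100 nM, then 19.3 and 16.6 at 300 nM. The groups were ordered by dose with no overlap. Its log2 fold change was 4.58 (SE 0.19, edgeR adjusted p = 5.3e-12) at 100 nM, 5.48 (SE 0.20, adjusted p = 3.4e-13) at 300 nM and 0.91 (SE 0.15, adjusted p = 9.6e-05) between the doses, a 1.87-fold step. The length and GC fit gave 4.66, 5.91 and 1.25.

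CCL20 (ENSG00000115009.12, chr2:227805739-227817564, plus strand), the ligand of CCR6, had 10 and 22 reads with DMSO, 868 and 1277 at 100 nM, then 814 and 1249 at 300 nM. In CPM these were 0.104 and 0.234, 8.85 and 13.8, and 9.83 and 13.2. Both 300 nM libraries fell between the 100 nM libraries. The log2 fold changes against DMSO were 6.06 and 6.08 (SE 0.32 each, edgeR adjusted p = 9.4e-11 and 3.8e-11). They were 6.75 and 6.77 without the DMSO library of replicate 2, and 5.59 and 5.61 without that of replicate 1. The difference between the doses was 0.02 (SE 0.21, adjusted p = 0.94). On the deposited log2 scale they were 5.03 and 5.14. In the length and GC fit the value at 300 nM was 7.25, and CCL20 was higher at 300 nM than at 100 nM by 0.86 (adjusted p = 7.8e-04). Its transcripts have the lowest GC content of the 10 genes, 35.5%.

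**Figure D2:**
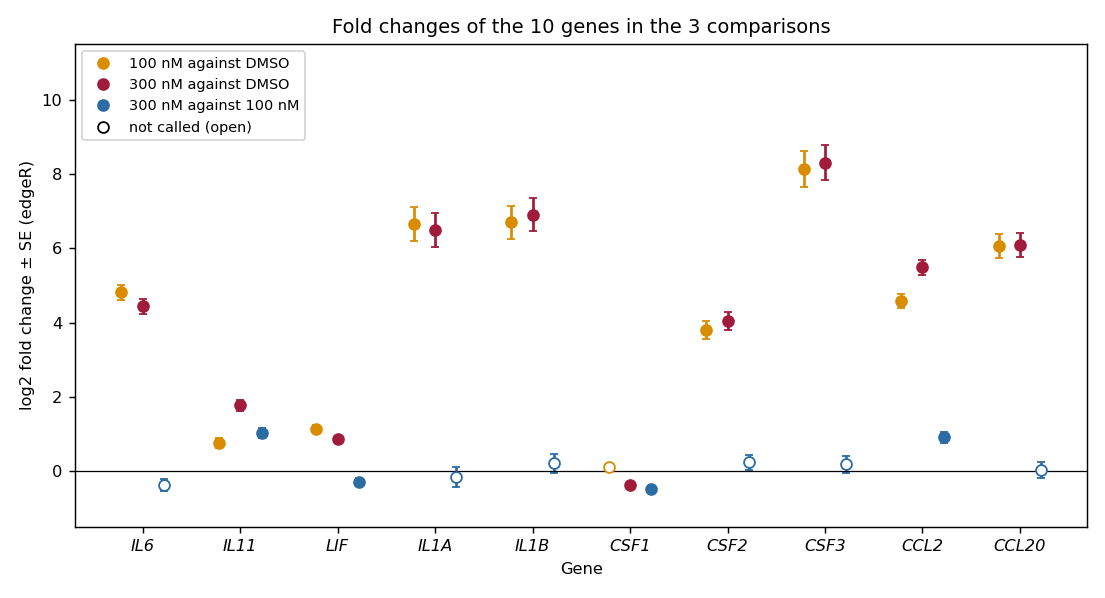
Log2 fold changes of the 10 genes in the 3 comparisons, with the standard error from edgeR as bars. Filled points passed the test and open points did not. Values against DMSO run from -0.38 for CSF1 to 8.31 for CSF3, whereas those between the doses lie between -0.49 and 1.02.

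**Figure D3:**
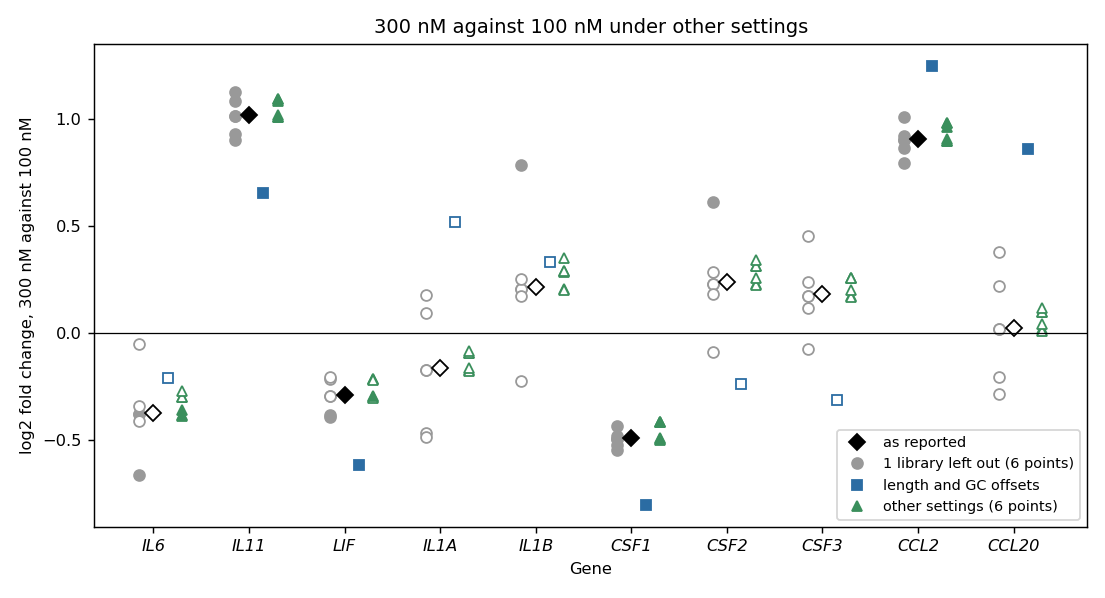
Log2 fold change of each gene between 300 nM and 100 nM as reported (diamonds), with 1 library left out (circles), with length and GC offsets (squares) and under 6 other settings (triangles). Filled symbols passed the test and open symbols did not. IL11 and CCL2 stay above 0 and CSF1 below it at every setting, IL6 and LIF stay below it with a call at some settings, and IL1A, IL1B, CSF2, CSF3 and CCL20 fall on both sides.

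Because longer transcripts collect more reads, levels were compared between genes as CPM per kilobase of merged exons. With DMSO, CSF1 stood at 93.2 CPM per kilobase and LIF at 29.3, followed by IL11 at 4.25. CSF2 (1.11) and IL6 (1.09) did not differ beyond their spread. CCL2 (0.201) and CCL20 (0.106) followed, and IL1A, IL1B and CSF3, at 0.0175, 0.0137 and 0.00479, overlapped.

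With decitabine the top of the order did not change, but IL6 and CSF2 moved above IL11. At 100 nM the levels per kilobase were 100.4 for CSF1, 64.6 for LIF, 30.6 for IL6 and 15.5 for CSF2. IL11 (7.14) and CCL20 (7.11) overlapped, CCL2 stood at 4.83, and IL1A, CSF3 and IL1B (1.81, 1.49 and 1.46) overlapped. At 300 nM the order was CSF1 (71.6), LIF (52.9), IL6 (23.6), CSF2 (18.2), IL11 (14.5), CCL2 (9.04) and CCL20 (7.22), with CSF3, IL1B and IL1A again last and overlapping (1.69, 1.69 and 1.61). 

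Receptor transcripts were measured in the same libraries. Of 13 receptor genes, 9 were tested. Of these, 3 were higher and 2 lower at 100 nM, and 5 higher and 3 lower at 300 nM, with median log2 fold changes of 0.46 and 0.42. Over all genes tested, 24.0% were higher and 18.7% lower at 100 nM and 34.8% and 31.1% at 300 nM, so at 100 nM the receptor counts are near the background. The length and GC fit gave 5 higher and 1 lower at 100 nM and 7 higher and 2 lower at 300 nM, with medians of 0.78 and 0.57. The signal-transducing gp130 chain, IL6ST, measured 79.2 and 86.0 CPM with DMSO, 51.1 and 65.7 at 100 nM, then 12.9 and 17.5 at 300 nM. LIFR, the chain that pairs with gp130 for LIF and several related cytokines, measured 32.2 and 40.4, 8.78 and 11.2, and 3.02 and 3.93 CPM. Both were ordered by dose, downwards, with no overlap between groups. The log2 fold change of LIFR was -1.86 (SE 0.17, edgeR adjusted p = 8.6e-08) at 100 nM and, at 300 nM, -3.38 (SE 0.18, adjusted p = 4.6e-11), and -0.96 and -1.24 in the length and GC fit. IL6ST fell by 0.50 on the log2 scale (SE 0.15, edgeR adjusted p = 0.01) at 100 nM, and changed by -2.44 (SE 0.16, adjusted p = 4.2e-10) at 300 nM. Both are long transcripts of low GC content, and the length and GC fit turned IL6ST at 100 nM to 0.30 (adjusted p = 0.0034) and reduced its fall at 300 nM to -0.49 (adjusted p = 6.8e-05). The call for IL6ST at 100 nM was also lost without the DMSO library of replicate 2 (-0.44, adjusted p = 0.062) and without the 100 nM library of replicate 1 (-0.31, adjusted p = 0.18).

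The other gp130 receptor chains were at low levels. IL6R averaged 4.91 ± 0.145, 4.04 ± 0.49 and 6.57 ± 0.094 CPM in order of dose (SD, n = 2). It was higher at 300 nM by 0.42 (SE 0.16, edgeR adjusted p = 0.033), a call lost without either DMSO library (adjusted p = 0.11 and 0.17) or either 300 nM library (0.054 and 0.069). IL11RA averaged 0.921, 2.19 and 1.94 CPM and rose at both doses, with log2 fold changes of 1.25 (SE 0.23, adjusted p = 3.4e-04) and 1.08 (SE 0.24, adjusted p = 7.1e-04).

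For interleukin-1, the signalling receptor IL1R1 averaged 44.8 CPM with DMSO, 74.0 at 100 nM and 40.7 at 300 nM. It was higher at 100 nM by 0.72 (SE 0.12, edgeR adjusted p = 1.5e-04) and did not pass at 300 nM (-0.14, SE 0.12, adjusted p = 0.34), where the length and GC fit gave 0.57 (adjusted p = 8.7e-06). Its partner IL1RAP fell at 300 nM by 1.00 on the log2 scale (SE 0.16, adjusted p = 3.6e-05), and in the length and GC fit it was higher instead, by 0.43 (adjusted p = 0.0017). The decoy receptor IL1R2 averaged 1.45, 1.99 and 3.58 CPM and was higher at 300 nM by 1.30 (SE 0.24, adjusted p = 1.5e-04). CSF1R, the receptor for CSF1, averaged 3.36, 6.91 and 7.16 CPM and rose at both doses, by 1.04 and 1.09 (SE 0.18 each, edgeR adjusted p = 1.6e-04 and 4.9e-05). CSF2RB, the signalling chain for CSF2, averaged 0.242, 0.541 and 0.683 CPM and passed at 300 nM (1.5, SE 0.47, adjusted p = 0.01) but not at 100 nM (1.15, SE 0.47, adjusted p = 0.06). The 300 nM call was lost without the 300 nM library of replicate 2 (1.13, adjusted p = 0.091). CSF2RA had 0 reads in every library, and CSF3R, CCR2 and CCR6 had between 0 and 4, too few to test. A gene whose sequence is shared between chromosomes X and Y, such as CSF2RA, can lose reads in counting, which was not measured.

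**Figure D4:**
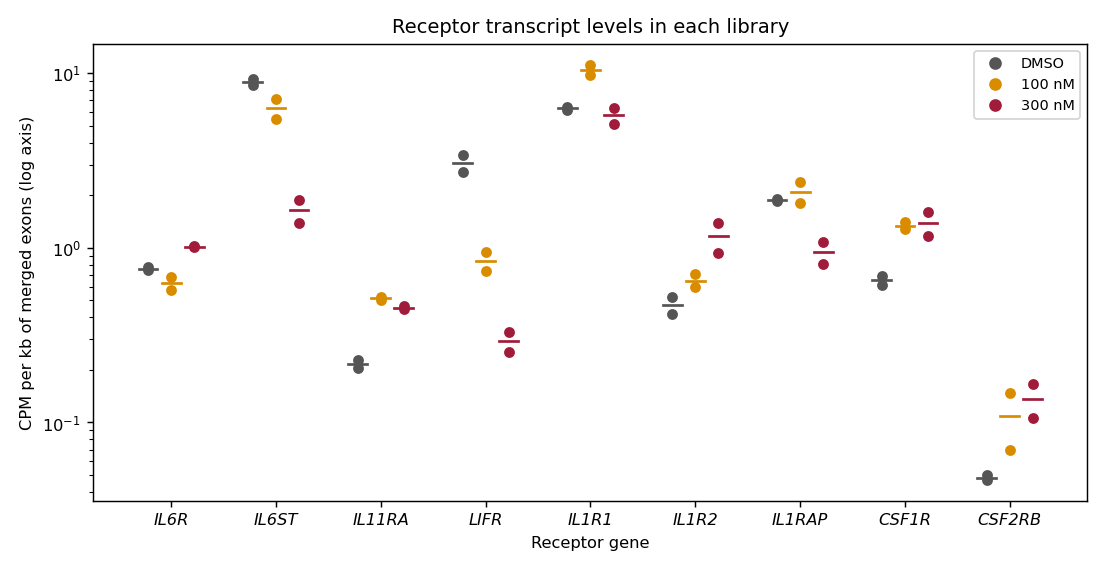
Levels of the 9 tested receptor genes in each library, as CPM per kilobase of merged exons on a log axis, with 2 libraries (points) and the mean (bar) per group. Levels of IL6ST and LIFR step down with each dose, those of IL1R2 step up (not past the test at 100 nM), and those of IL11RA and CSF1R lie above DMSO at either dose.

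Other cytokines of the same families included several at a few reads with DMSO. Of 37 listed, 29 were tested, with 21 higher and 2 lower at 100 nM and 20 higher and 3 lower at 300 nM, and median log2 fold changes of 3.05 and 3.52 (2.93 and 3.37 with the 3 genes at 0 DMSO reads set against 3 reads over the group). As many as 16 of the 29 had entered the test through decitabine libraries, so these counts and medians are a description. Of the 13 that reached the read minimum in both DMSO libraries, 7 were higher and 2 lower at 100 nM, and 6 higher and 3 lower at 300 nM. Shares over all genes tested were 24.0% higher and 18.7% lower at 100 nM, and 34.8% and 31.1% at 300 nM. CCL5, a T cell attractant, rose from 12.2 ± 0.371 CPM with DMSO to 101 ± 2.8 at 100 nM and 136 ± 17.8 at 300 nM (SD, n = 2), with log2 fold changes of 3.05 and 3.48 (SE 0.12 each, edgeR adjusted p = 2.8e-12 and 3.4e-13). IL34, the second ligand of the CSF1 receptor, rose from 0.116 to 4.22 and 9.73 CPM, with log2 fold changes of 5.17 and 6.38 (SE 0.25 each, adjusted p = 2.9e-11 and 8.9e-13). CSF1 and IL34, which share a receptor, moved in opposite directions at 300 nM. CCL26, an eosinophil attractant, rose from 2.77 to 28.03 and 54.4 CPM, with log2 fold changes of 3.34 (SE 0.17, adjusted p = 6.2e-11) and 4.30 (SE 0.18, adjusted p = 1.9e-12). TNF had 2 and 4 reads with DMSO, 310 and 397 at 100 nM, then 773 and 720 at 300 nM, with fitted log2 fold changes of 6.82 (SE 0.36, adjusted p = 1.1e-10) and 8.01 (SE 0.35, adjusted p = 4.0e-12). The 2 genes lower at both doses were KITLG, the ligand of KIT, which averaged 69.2 CPM with DMSO, 22.5 at 100 nM and 11.1 at 300 nM, and CNTF, a gp130 cytokine of the nervous system, at 0.783, 0.329 and 0.232 CPM. They were named after their values were seen. At 100 nM, DESeq2's test called 1 gene of this list lower, so at least 1 of these 2 calls was lost. The length and GC fit called 3 genes of the list lower at that dose.

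Of 16 tested genes for signalling and feedback of these receptors, 6 were higher and 3 lower at 100 nM and 9 higher and 5 lower at 300 nM, with medians of 0.14 and 0.48 (0.24 and 0.23 in the length and GC fit, with 8 higher and 2 lower, then 9 higher and 4 lower). All genes tested gave 24.0% higher and 18.7% lower at 100 nM, and 34.8% and 31.1% at 300 nM. The counts of lower signalling genes are thus near the background at both doses. MYD88, the adaptor of the interleukin-1 receptor, rose from 19.8 ± 0.743 CPM to 73.1 ± 5.47 and 97.1 ± 4.20, with log2 fold changes of 1.89 (SE 0.11, edgeR adjusted p = 6.0e-10) and 2.30 (SE 0.12, adjusted p = 2.3e-11). IRAK2, a kinase of the same complex, rose by 2.32 and 1.87 (SE 0.13 each, adjusted p = 2.4e-10 and 1.2e-09). SOCS1, a feedback inhibitor of JAK kinases, rose by 2.61 and 3.28 (SE 0.18 each, adjusted p = 2.7e-09 and 6.7e-11). PTPN11, the phosphatase SHP2 that binds gp130, was lower by -0.96 (SE 0.13, adjusted p = 1.4e-05) and -2.13 (SE 0.14, adjusted p = 4.5e-10).

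Among 11 tested genes of inflammasomes and interleukin-1 processing, 7 were higher and 1 lower at each dose, with medians of 0.93 and 0.81. Of the 8 that reached the read minimum in both DMSO libraries, 4 were higher at each dose. The shares of all genes tested were 24.0% higher and 18.7% lower at 100 nM, and 34.8% and 31.1% at 300 nM. The length and GC fit gave 8 and 9 higher of the 11, with 1 lower, and medians of 0.99 and 1.04. With 1 library left out, the median at 100 nM ranged from 0.70 to 1.34, over 11 or 12 genes tested. The adaptor PYCARD had 10 and 6 reads with DMSO, 541 and 473 at 100 nM, then 762 and 603 at 300 nM, with log2 fold changes of 5.96 and 6.51 (SE 0.31 each, edgeR adjusted p = 7.3e-11 and 1.0e-11). The sensor NLRP3 averaged 0.105, 1.97 and 4.12 CPM, with log2 fold changes of 4.21 and 5.27 (SE 0.33 each, adjusted p = 1.9e-08 and 2.9e-10). The DNA sensor AIM2 was highest at 100 nM, averaging 0.189, 2.45 and 0.869 CPM, and the inflammatory caspase CASP4 likewise, at 21.2, 62.9 and 37.6 CPM. Both were higher than with DMSO at either dose (edgeR adjusted p from 7.5e-08 to 4.9e-05).

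Cytokine messages are short-lived, and a set of RNA-binding proteins and nucleases controls their decay. Of 10 such genes tested, 3 were higher and 2 lower at 100 nM and 5 higher and 3 lower at 300 nM, with medians of -0.08 and 0.07. At 100 nM these counts are near the background of 24.0% higher and 18.7% lower. Where 34.8% of all genes tested were higher and 31.1% lower, at 300 nM, the count of lower decay genes is near the background too. The length and GC fit gave 6 higher and 2 lower at 100 nM and 7 higher and 3 lower at 300 nM, with medians of 0.27 and 0.60. ZC3H12A, the nuclease Regnase-1 that cleaves IL6 messages, averaged 23.6 CPM with DMSO and 122 at both doses, with log2 fold changes of 2.36 and 2.37 (SE 0.11 each, edgeR adjusted p = 3.2e-11 and 1.4e-11). ZFP36L2, which binds AU-rich elements, rose by 0.98 and 1.12 (SE 0.11 each, adjusted p = 1.6e-06 and 1.2e-07). RC3H1 and RC3H2, the Roquin proteins, were lower by -0.54 and -0.48 at 100 nM and by -1.26 and -1.45 at 300 nM (adjusted p from 3.1e-08 to 0.0074). Both are long transcripts, and in the length and GC fit both were higher instead, by 0.27 and 0.37 at 100 nM and by 0.65 and 0.55 at 300 nM. Their 100 nM calls were also lost without the 100 nM library of replicate 1 (adjusted p = 0.18 and 0.093).

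Of the 12 AP-1, C/EBP and NFKBIZ transcription factor genes, 10 were higher and 1 lower at 100 nM and 11 higher and 1 lower at 300 nM, with medians of 1.09 and 1.23. Among all genes tested, 24.0% were higher and 18.7% lower at 100 nM, and 34.8% and 31.1% at 300 nM. In the length and GC fit 10 were higher at 100 nM and 8 at 300 nM, with medians of 0.82 and 0.51, and 1 was lower at each dose. ATF3, a stress-induced factor of the AP-1 group, averaged 7.37 ± 1.46, 50.2 ± 10.9 and 91.5 ± 10.7 CPM, with log2 fold changes of 2.77 and 3.63 (SE 0.17 each, edgeR adjusted p = 6.1e-10 and 1.2e-11). JUNB averaged 79.8, 250 and 337 CPM, and JUND 71.3, 158 and 191 CPM. CEBPB, a C/EBP factor first described at the IL6 gene, averaged 87.7, 308 and 274 CPM, with log2 fold changes of 1.81 and 1.64 (SE 0.10 each, adjusted p = 3.2e-10 and 4.0e-10). The gene that was lower at both doses was NFKBIZ, an NF-kB cofactor needed for IL6 induction in other cells, which was named after its values were seen and averaged 134.8, 84.9 and 43.1 CPM, with log2 fold changes of -0.67 and -1.64 (SE 0.13 each).

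In the length and GC fit, some list genes kept their call at 300 nM with a value that moved by more than 1.5-fold. The log2 fold change became 3.07 for CCL26, 1.19 for JUNB, 0.82 for CEBPB, 0.66 for JUND, 2.49 for SOCS1 and -1.11 for PTPN11. It became 2.71 for CCL5, 5.52 for IL34, 7.27 for TNF, 5.51 for PYCARD, 1.63 for ZC3H12A and 2.46 for CASP4.

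**Figure D5:**
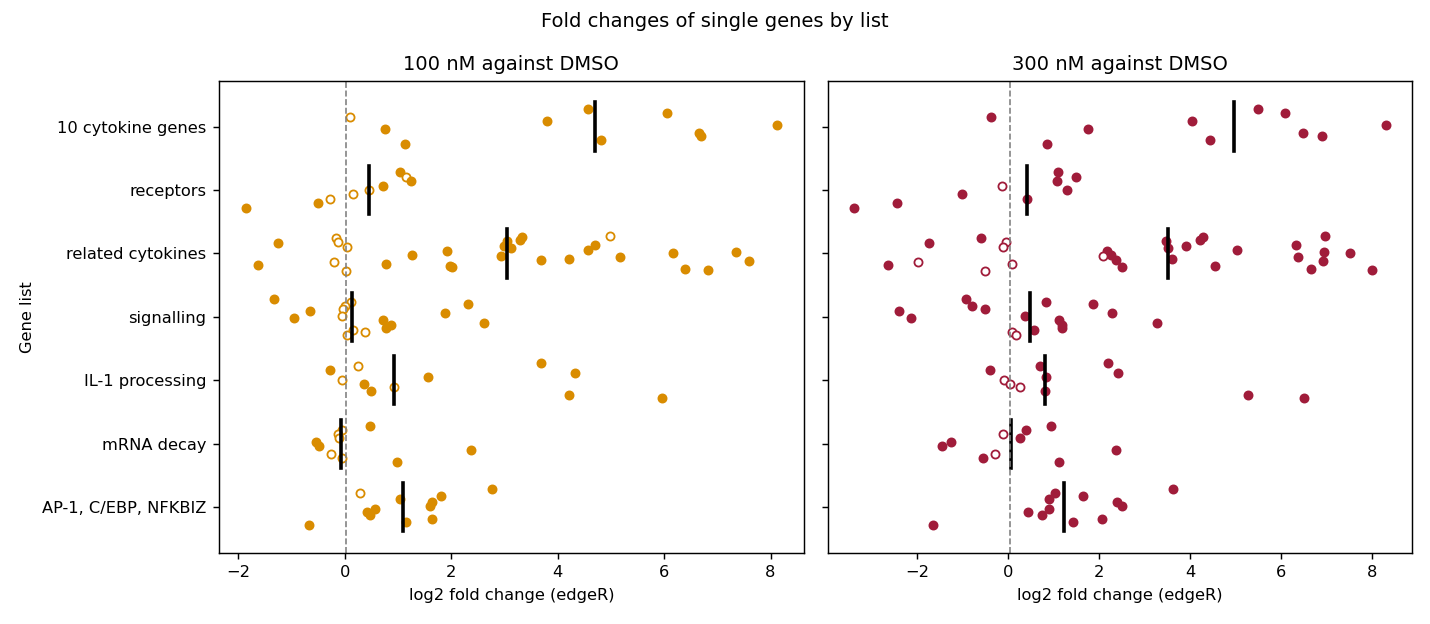
Log2 fold changes against DMSO of single genes in each list, at 100 nM (left) and 300 nM (right). Filled points passed the test, open points did not, black bars are list medians and the dashed line is the median of all genes tested (0.03 and 0.05). Medians at 100 nM run from -0.08 for the mRNA decay genes to 4.70 for the 10 cytokine genes. However, 4 of these 10 and 16 of the 29 related cytokines did not reach the read minimum in both DMSO libraries.

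For the 7 genes with at least 10 reads in every library, the coding genes of most similar profile over the 6 libraries were found as those with the smallest root mean square difference in centred log2 (CPM + 0.5), among 12422 genes averaging 1 CPM or more. IL6 was closest to CXCL1, a neutrophil chemokine (difference 0.0591 on the log2 scale), which averaged 2.10, 60.0 and 46.9 CPM with DMSO, 100 nM and 300 nM. The next was the interferon-stimulated gene OAS2 (0.213). IL11 was closest to SEMA6B (0.0505) and SH2D3A (0.0640), and LIF to P2RX4 (0.0582) and PNRC1 (0.0693). CSF1 was closest to ZNF155 (0.0296) and WDSUB1 (0.0437), both of which also dipped at 300 nM. CSF2 was closest to MAFF, a small MAF transcription factor (0.113), and to OSM, another gp130 cytokine (0.141). CCL2 was closest to C6orf223 (0.0522) and KCNN4 (0.0667), and CCL20 to PDGFRB (0.226) and KLHDC7B (0.240). The added 0.5 damps the changes of genes below 1 CPM with DMSO, so the likeness of CSF2, CCL2 and CCL20 to these genes is set in part by it: KLHDC7B averaged 0.021 CPM with DMSO against 0.169 for CCL20, and OSM 0.0525 against 0.871 for CSF2. With 6 libraries that differ mainly by dose, many genes share such a profile, and these are descriptions.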

How the data were processed

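Polyadenylated RNA of 6 libraries was used, 2 each for DMSO, 100 nM and 300 nM decitabine. Counts as deposited are reads for each of 58381 genes, unscaled. The authors made them with STAR, SAMtools and featureCounts, per the submitters' processing notes (featureCounts 1.5.0-p3 and GENCODE v28 per the file headers). The recorded command names neither a paired-end nor a strand option, so each mate counted once and strand was ignored. Of counts from 1 to 10, 70.0% to 74.4% were even. The notes name hg19 and GRCh37, but the 56933 genes found in GENCODE v29 under an identical versioned identifier all have its GRCh38 coordinates, which are the ones printed. Symbols came from GENCODE v29 for 58261 genes. The deposited log2 matrix holds variance-stabilised values of the authors for the 37599 genes with a read. Its settings are not given in the sources used here, and it served as an alternative.

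After TMM scaling and filterByExpr (about 10 reads in 2 libraries), 23160 genes were tested with edgeR 4.0.16 (quasi-likelihood, two-sided, Benjamini-Hochberg, adjusted p under 0.05, R 4.3.3) in 1 fit of all 6 libraries with 3 residual degrees of freedom. The biological coefficient of variation was 11.8%. The fit was tested on simulated data with moderate rises in well-counted genes, which does not check genes with few reads with DMSO. Values are mean ± SD over 2 libraries where not given singly. Alternatives were DESeq2 1.42.0 (its size factors in edgeR, and its own test), no filter, only the groups compared, a replicate block, limma 3.58.1 on the log2 matrix, offsets for exon length and GC content (mgcv 1.9.3), and each library left out. The 2 libraries of a group differed by more than counting error (chi-square per gene from 8.32 to 39.4), so none was taken as a duplicate.

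The 10 genes, the gene lists and the alternatives were chosen with earlier results of these data known. From each list the text names the 4 genes with the smallest adjusted p at either dose, and all receptors. Other genes named are said to be so.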

Additional observations from a re-analysis of the deposited data

How the results depend on the processing

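Of 130 values of the 10 genes against DMSO under 13 alternatives, 129 kept direction and side of the threshold at 100 nM and 130 at 300 nM. The exception was CSF1 at 100 nM, not called, which was -0.043 with length and GC offsets. IL1A, IL1B, CSF3 and CCL20 missed the read minimum in at least 1 DMSO library and passed it with decitabine. For IL1A, IL1B and CSF3, their part of this agreement was therefore largely set in advance and is no check. CCL20 passed the minimum in 1 DMSO library and missed it narrowly in the other, so its part was not set in this way. Between the doses 103 of 130 values kept direction and side of the threshold, 8 lost a call, 9 gained one and 10 changed sign without one. Length and GC offsets turned IL1A to 0.52, CSF2 to -0.24 and CSF3 to -0.31. Without the 100 nM library of replicate 1, IL1B became -0.22, CSF2 -0.089, CSF3 -0.077 and CCL20 -0.28. IL1A became 0.18 without the 100 nM library of replicate 2 and 0.09 without the 300 nM library of replicate 1, and CCL20 became -0.21 without the 300 nM library of replicate 2. With 1 library left out, the difference between the doses ranged from -0.49 to 0.18 for IL1A, -0.22 to 0.78 for IL1B, -0.089 to 0.61 for CSF2, -0.077 to 0.45 for CSF3 and -0.28 to 0.38 for CCL20. The count of the 10 genes lower at 300 nM than at 100 nM, 2, fell to 1 with DESeq2 size factors, DESeq2's test and the log2 matrix, and ranged from 1 to 3 with 1 library left out, when the count higher ranged from 2 to 4. With 1 library left out, genes lower at 100 nM than with DMSO numbered 2883 to 5036 (4331 with all), and genes higher at 300 nM than at 100 nM 2896 to 4901 (4623 with all). A fit that leaves out a library assumes that the lone library of that group varies like the others.

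Of 29 named list genes, 364 of 377 values held at 100 nM and 365 of 377 at 300 nM. Length and GC offsets reversed IL6ST (0.30), RC3H1 (0.27) and RC3H2 (0.37) at 100 nM, and IL1R1 (0.57), IL1RAP (0.43), RC3H1 (0.65) and RC3H2 (0.55) at 300 nM. With 1 library left out, IL1RAP ranged from -0.053 to 0.36 at 100 nM and IL1R1 from -0.30 to 0.0078 at 300 nM.

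The labels tie replicate numbers to no batch, and each comparison has 2 same-numbered pairs, too few to settle whether the numbers pair the libraries. Deviations of same-numbered libraries correlated at 0.12, 0.13 and 0.27 across genes for the 3 pairs of groups. With the replicate number as a block, 9 of the 10 genes were higher and 0 lower at 100 nM, 9 higher and 1 lower at 300 nM, and 2 higher and 3 lower between the doses, where IL6 joined LIF and CSF1 (-0.36, edgeR adjusted p = 0.0031). Depth limits IL1A, IL1B and CSF3, whose DMSO levels rest on 7, 8 and 2 reads.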
